A study of Mus musculus with 12 samples.

Results

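The genes described here are 34 mouse genes of microglia and their lysosomes, taken from a list of symbols, and all 34 were found among the 16640 genes of an RNA-seq table of the arcuate nucleus (ARC). The list holds 4 cathepsins (Ctss, Ctsd, Ctsb and Ctsz) and 30 other genes, not all of them particular to microglia. Members were found by symbol alone. Microdissected ARC, a nucleus at the base of the hypothalamus, was profiled from female mice at 27 weeks of age. Control females were Esr1fl/fl, so that both copies of Esr1, the oestrogen receptor alpha gene, carried loxP sites but no Cre (label Ctrl). Mutant females were Esr1Nkx2-1Cre (label NkxCre), in which the floxed gene is deleted wherever Nkx2-1, a gene of the ventral forebrain, has driven Cre. The floxed allele was therefore common to both genotypes. Because Cre followed Nkx2-1 and not a gene of microglia, the model removes the receptor from neurons and other cells of that lineage. Each genotype was kept on chow or given a high-fat diet (HFD) for 17 weeks, which made 4 groups. On chow there were 3 control and 4 mutant libraries, and on HFD there were 2 control and 3 mutant libraries. The labels do not say whether a library holds 1 animal or a pool, so p-values measure the spread between these libraries.

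Microglia are the resident macrophages of the brain. They depend on signalling through the receptor CSF1R, they sense purines and fractalkine with P2RY12, P2RY13 and CX3CR1, and their gene programme is built by the transcription factors PU.1 (Spi1), IRF8 and SALL1. They are the main source of complement C1q in the brain, a protein made of chains from C1qa, C1qb and C1qc that tags material for uptake. What they engulf is degraded in lysosomes by cathepsins. Cathepsin S (Ctss) is made mostly by microglia and other myeloid cells and cuts the invariant chain of MHC class II, whereas cathepsins B and D are also made by neurons and other glia.

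Ctss (ENSMUSG00000038642) lies on GRCm38 chromosome 3 at 95526786 to 95556403 on the plus strand. The 3 C1q genes form a cluster on the minus strand of chromosome 4, with C1qb at 136880129 to 136886187, C1qc at 136889804 to 136893065 and C1qa at 136895917 to 136898803. RefSeq (GRCm38.p6) gave the 250 bases before the gene start for 25 of the 34 genes and not for Itgb2, C1qa, Spi1, Gpr34, Csf1r, Tmem119, Selplg, Tyrobp or Ctsb. The letters GAGGAA, the core bound by PU.1, were searched on both strands. They stood in 13 of the 25 promoters, or 52.0%, and in 23.1% of all 27025 promoters of that length. These 13 were Ptprc, Fcgr3, P2ry13, Fcrls, Ctss, Cd53, Laptm5, C1qb, C1qc, Itgam, Cd68, Aif1 and Trem2. The windows of 5 of them are shown because they span the roles on the list, a protease, a complement chain, an integrin, an immune receptor and a purine receptor. Each is written 5′ to 3′ along the gene, with GAGGAA or its reverse complement TTCCTC in capitals. In order, they are chr3:95526536-95526785 on the plus strand, chr4:136886201-136886450 on the minus strand, chr7:128062390-128062639 on the plus strand, chr17:48346151-48346400 on the plus strand and chr3:59210883-59211132 on the minus strand.
Ctss: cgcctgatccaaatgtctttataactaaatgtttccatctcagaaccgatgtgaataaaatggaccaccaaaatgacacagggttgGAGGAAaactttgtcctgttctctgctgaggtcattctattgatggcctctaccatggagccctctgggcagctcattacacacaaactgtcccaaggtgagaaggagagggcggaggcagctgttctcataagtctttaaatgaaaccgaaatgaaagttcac
C1qb: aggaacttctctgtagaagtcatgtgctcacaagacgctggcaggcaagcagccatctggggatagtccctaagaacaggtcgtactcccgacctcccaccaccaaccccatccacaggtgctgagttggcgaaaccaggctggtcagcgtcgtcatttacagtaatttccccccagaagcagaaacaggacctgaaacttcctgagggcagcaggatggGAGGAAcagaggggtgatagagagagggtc
Itgam: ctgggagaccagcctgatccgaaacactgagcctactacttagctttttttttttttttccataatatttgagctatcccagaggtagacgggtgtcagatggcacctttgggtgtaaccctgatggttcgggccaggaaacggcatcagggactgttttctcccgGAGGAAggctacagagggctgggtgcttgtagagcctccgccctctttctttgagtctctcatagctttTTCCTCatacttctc
Trem2: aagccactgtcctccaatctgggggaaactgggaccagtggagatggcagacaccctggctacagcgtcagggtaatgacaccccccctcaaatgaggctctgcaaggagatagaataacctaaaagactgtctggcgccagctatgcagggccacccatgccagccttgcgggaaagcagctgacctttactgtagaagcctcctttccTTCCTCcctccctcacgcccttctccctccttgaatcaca
P2ry13: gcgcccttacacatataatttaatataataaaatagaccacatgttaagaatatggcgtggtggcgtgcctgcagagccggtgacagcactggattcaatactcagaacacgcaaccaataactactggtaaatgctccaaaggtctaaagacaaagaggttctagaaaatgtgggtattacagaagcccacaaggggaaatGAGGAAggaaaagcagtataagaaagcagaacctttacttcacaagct
Counted in bases from the gene start, the match began at -164 in Ctss, at -30 in C1qb, at -84 and -15 in Itgam, at -40 in Trem2 and at -48 in P2ry13. TCACGTGA, the palindrome recognised by TFEB-type factors of lysosomal genes, stood in 2 of the 25 promoters, those of Siglech and Ctsd, and in 0.803% of all promoters. The site of Ctsd, the gene for the aspartyl protease cathepsin D, began at -99 from the RefSeq start. The GENCODE annotation places Ctsd at 142375911 to 142388038, so by that annotation the site lies inside the gene. It is shown with the palindrome in capitals, at chr7:142387908-142387937 on the minus strand.
Ctsd: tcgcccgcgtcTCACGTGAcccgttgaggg
Of the 5 other motifs searched on both strands, GGAAGT, the broader ETS core, was in 8 member promoters against 19.99% of all, and GAGGAAGT, which contains both GAGGAA and GGAAGT, was in 1 against 2.44%. CACGTG, which lies within TCACGTGA, was in 3 against 6.05%. TGACTCA, the AP-1 site, was in 1 against 4.43%, and GGAANNGAA, a spelling of the joint ETS and IRF element, was in 0 against 7.03%. A match describes the letters only.

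Values are the abundance signal that the authors deposited, which lies near the scale of TPM (abundance per transcript length, scaled to a fixed sum), and differences are on a log2(signal + 1) scale. Column sums ran from 922172 to 1254999, the depth of the libraries is unknown, and between 201 and 1768 genes were listed at 0, the most in mutant chow replicate 3. Esr1 was between 1.65 and 6.05 in the 4 mutant chow libraries and between 7.29 and 19.8 in the 3 control chow libraries. The 3 libraries labelled mutant HFD had values of 10.7, 16.6 and 11.9, close to the 15.3 and 22.4 of control HFD. Esr1 therefore went against the label in those 3, and each direction drawn from them carries that limit.

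All 34 genes had signal in every library, since none was listed at 0 and the lowest value was 1.10 (Ptprc in control chow replicate 2). Cathepsin D had the highest mean signal of the 34 genes over the 12 libraries, at 408, and cathepsin B the next, at 358, on a scale that corrects for transcript length. The group mean was highest in mutant chow for 27 of the 34 genes (28.2% of all genes tested), in control HFD for 4 (P2ry13, Siglech, Sall1 and Ly86), in control chow for 3 (Ctsz, Tyrobp and Cyba) and in mutant HFD for 0. The number of genes above their own median over all libraries was 25, 26, 26 and 32 in the mutant chow libraries, 8, 18 and 23 in control chow, 11 and 11 in control HFD, and 5, 3 and 16 in the libraries labelled mutant HFD. The mean of log2(signal + 1) over the 34 genes was 4.18, 4.47 and 4.57 in control chow and 4.87, 4.80, 4.72 and 4.91 in mutant chow. It was 4.26 and 4.33 in control HFD and 4.22, 4.22 and 4.58 in the libraries labelled mutant HFD. Every mutant chow library thus lay above all 8 others. In bulk tissue fewer cells of a type and less RNA per cell cannot be told apart.

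**Figure D1:**
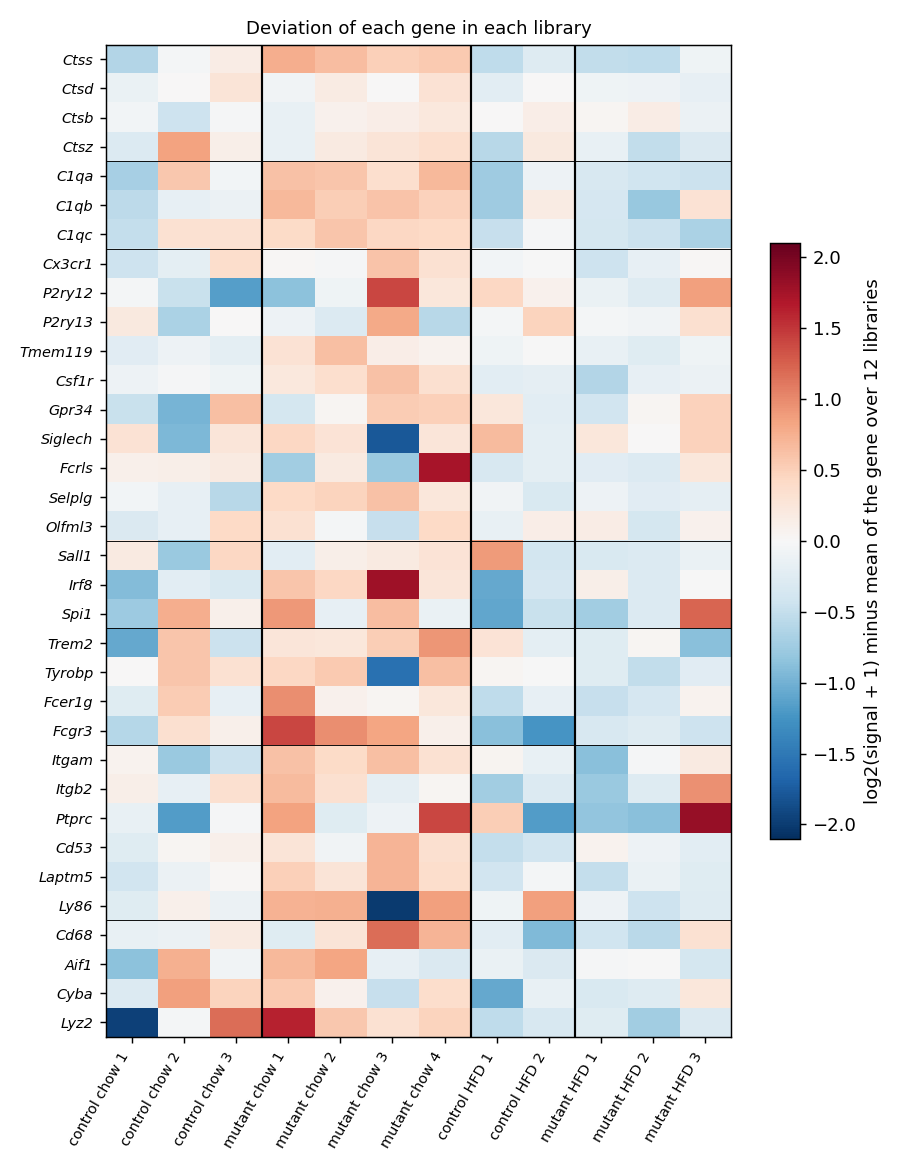
Heat map of the 34 genes (grouped by role) in the 12 libraries. Colour is log2(signal + 1) minus the gene's mean over the 12 libraries, red above and blue below it. The 4 mutant chow columns are mostly red, with 25 to 32 of the 34 genes above their median, and mutant chow replicate 3 has strongly blue cells for Siglech, Tyrobp and Ly86.

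Between the genotypes on chow, Ctss was the member with the lowest p-value. Its signal was 76.7, 114 and 131 in control chow and 200.2, 185, 167 and 173 in mutant chow. The lowest mutant library stood above the highest control library. The means were 107 ± 27.8 (SD, n = 3) and 181 ± 14.5 (SD, n = 4). The log2 difference was 0.78 ± 0.19 (SE, 95% interval 0.37 to 1.199), with a limma unadjusted p = 0.00142, which ranked 28 among 15801 genes, and a Benjamini-Hochberg adjusted p = 0.803. The other cathepsins lay closer together. Ctsd was 423 ± 62.1 (SD, n = 3) in control chow and 439 ± 51.7 (SD, n = 4) in mutant chow, Ctsb 318 ± 48.6 and 376 ± 40.0, and Ctsz 125 ± 51.4 and 115 ± 16.7, and for these 3 the groups overlapped. Fitted log2 differences were 0.06 ± 0.15 for Ctsd, 0.24 ± 0.15 for Ctsb and -0.06 ± 0.26 for Ctsz (SE, limma), and that of Ctsd turned to -0.04 without control chow replicate 1 and to -0.01 without mutant chow replicate 4.

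Of the C1q chains, C1qb was 64.7, 84.0 and 87.7 in control chow and 154, 136, 144 and 133 in mutant chow. All 4 mutant values exceeded the control values, and the ratio of the means was 1.80. The log2 difference was 0.85 ± 0.26 (SE, limma, unadjusted p = 0.00657, adjusted p = 0.982). C1qa was 74.4, 180 and 116 in control chow and 186, 182, 154 and 194 in mutant chow, with control chow replicate 2 inside the mutant range. C1qc was 45.8, 81.2 and 81.0 against 86.5, 97.7, 88.1 and 86.5, again with no mutant library at or below a control. Their log2 differences were 0.62 ± 0.25 and 0.41 ± 0.21 (SE, limma), with unadjusted p = 0.0292 and 0.0707.

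Among the surface and secreted identity genes the groups did not overlap for 3 of 10, all higher in mutants, against 2.54% of all genes. Csf1r, the receptor for the survival factors CSF1 and IL-34, was 35.3, 37.3 and 35.8 in control chow and 44.4, 49.2, 59.0 and 48.6 in mutant chow. Selplg, the P-selectin ligand, was 25.9, 24.0 and 17.7 against 36.4, 38.1, 41.9 and 32.1. Tmem119, a membrane protein found on microglia but on few other macrophages, was 15.97, 17.5 and 16.3 against 23.6, 29.96, 20.9 and 19.9. On the log2 scale the differences were 0.46 ± 0.17 for Csf1r, 0.71 ± 0.19 for Selplg and 0.47 ± 0.19 for Tmem119 (SE, limma), with unadjusted p = 0.0195, 0.00234 and 0.0310. The purinergic receptor P2ry12 spread widely, with 23.2, 16.9 and 10.1 in control chow and 12.6, 22.3, 64.5 and 28.1 in mutant chow. The fractalkine receptor Cx3cr1 ran from 15.4 to 27.8 in control chow and from 21.1 to 32.6 in mutant chow. P2ry13, Gpr34, Siglech, Fcrls and Olfml3 had group means on chow between 2.99 and 12.4, and their groups overlapped.

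Of the transcription factors, Irf8 was 1.72, 3.40 and 3.09 in control chow and 6.63, 5.93, 16.5 and 5.13 in mutant chow. The groups were apart, and the log2 difference was 1.25 ± 0.39 (SE, limma, unadjusted p = 0.00772), the largest of the 34 genes on chow in the main fit. That size leaned on the 16.5 of mutant chow replicate 3, and over the alternative settings the difference of Irf8 ran from 0.91 to 1.499. Spi1 had means of 9.18 and 10.9 and Sall1 of 6.76 and 7.14, with overlapping libraries. Of the receptors that signal through ITAM adaptors, Trem2, a lipid sensor, was 13.02, 43.2 and 20.6 in control chow and 34.4, 33.7, 41.2 and 55.1 in mutant chow. Fcgr3, a receptor for IgG, was 7.91, 15.9 and 13.4 against 34.4, 25.5, 22.9 and 13.4. A control value in the former and a mutant value in the latter fell within the other group's range. The log2 differences were 0.80 ± 0.36 and 0.88 ± 0.32 (SE, limma, unadjusted p = 0.0449 and 0.0171). The adaptor Tyrobp, through which TREM2 signals, was 46.9, 70.5 and 58.3 in control chow and 63.5, 69.0, 15.1 and 72.4 in mutant chow. Its log2 difference was -0.29 ± 0.43 (SE, limma) and became 0.24 without mutant chow replicate 3. The other adaptor, Fcer1g, had means of 26.7 and 33.2.

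Itgam, the alpha chain of complement receptor 3, was 8.36, 4.15 and 5.45 in control chow and 12.6, 10.7, 12.7 and 10.1 in mutant chow. Laptm5, a lysosomal membrane protein of haematopoietic cells, was 29.6, 36.3 and 40.3 against 56.3, 48.3, 65.5 and 51.4. Neither gene's groups overlapped. Mutant minus control, the log2 differences were 0.88 ± 0.31 for Itgam and 0.63 ± 0.18 for Laptm5 (SE, limma), with unadjusted p = 0.0152 and 0.00454. Itgb2 (the partner chain of Itgam), Ptprc (CD45), Cd53 and Ly86 overlapped between the groups, with means in mutant chow 1.13, 2.38, 1.34 and 1.46 times those in control chow. Ptprc was low, from 1.10 to 3.64 in control chow and from 2.96 to 11.5 in mutant chow. Of the phagocyte effectors, Cd68, Aif1 and Lyz2 had mean ratios of 1.55, 1.201 and 1.57, and Cyba, a chain of the phagocyte oxidase, of 0.840. Lyz2 was 4.16, 18.4 and 44.1 in the 3 control chow libraries.

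**Figure D2:**
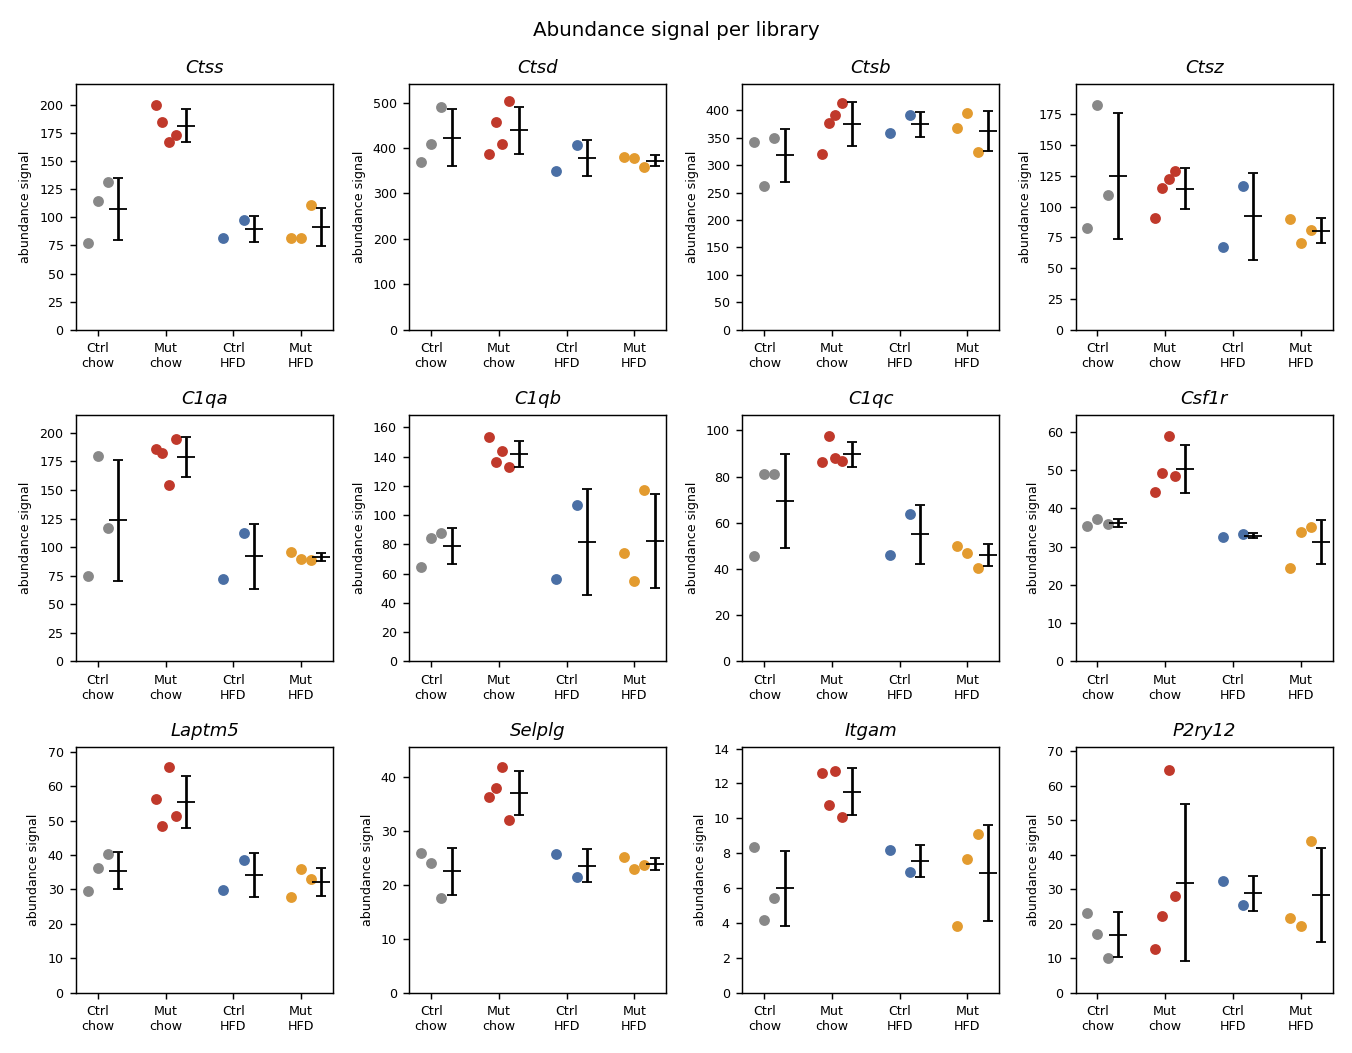
Abundance signal per library for the 4 cathepsins, the 3 C1q chains and 5 other members. The horizontal axis gives the 4 groups (control, Ctrl, and mutant, Mut, on chow or HFD), each point is 1 library, and the bar beside the points is the mean ± SD. For Ctss the 4 mutant chow libraries sit between 167 and 200.2 and all 8 others at 131 or below, whereas for Ctsb the mutant chow libraries overlap each of the other 3 groups.

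Counted over the list, 0 of the 34 genes passed an adjusted p of 0.05 on chow (limma, Benjamini-Hochberg), as 0.019% of all 15801 genes did. At an unadjusted p under 0.05 the count was 11 higher and 0 lower in mutants, where 2.59% of all genes were higher at that level. These 11 were Ctss, C1qa, C1qb, Csf1r, Selplg, Tmem119, Irf8, Trem2, Fcgr3, Itgam and Laptm5. Groups were apart, with mutants above controls, for 9 of 34 (Ctss, C1qb, C1qc, Csf1r, Selplg, Tmem119, Irf8, Itgam and Laptm5), against 2.54% of all genes. The log2 difference was above 0 for 29 of 34, against 52.2% of all genes, with Ctsz, Siglech, Fcrls, Tyrobp and Cyba below 0. Its median was 0.38 over the list and 0.01 over all genes tested. Control chow replicate 1 was the lowest control library for 24 of the 34 genes. Without it the count at an unadjusted p under 0.05 was 7 and the median 0.28, while 6.38% of all genes were called in either direction. Without mutant chow replicate 3 the count was 10 and the median 0.39, with 4.03% of all genes called. With all libraries 4.34% of all genes were called in either direction.

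The next comparison set mutants on the 2 diets side by side, and since it shares the mutant chow libraries with the comparison above, the signs of the 2 are not independent. Ctss was 81.9, 81.7 and 111 in the libraries labelled mutant HFD. All 3 lay below the 4 mutant chow values (167 to 200.2), and the mean of 91.4 ± 16.7 (SD, n = 3) was 50.4% of the mutant chow mean. The log2 difference was -0.99 ± 0.19 (SE, 95% interval -1.41 to -0.58), with a limma unadjusted p = 0.000207, which ranked 11 among 15801 genes, and an adjusted p = 0.297. With limma array weights, which let noisier libraries count less, its adjusted p was 0.0370. That was the lowest over 20 alternative settings, and the highest was 0.965. Ctsd was 379, 378 and 359 and Ctsz 90.1, 70.2 and 81.2, every value below the mutant chow ranges of 387 to 503 and 90.9 to 129, though by a narrow margin. Ctsb was 367, 396 and 325, inside its chow range. The log2 differences were -0.23 ± 0.15, -0.50 ± 0.26 and -0.05 ± 0.15 (SE, limma), and the last became 0.03 without mutant HFD replicate 3.

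All 3 C1q chains were apart between the diets, with HFD lower, against 4.88% of all genes. C1qa was 95.7, 89.7 and 88.6 in the libraries labelled mutant HFD, C1qb 74.3, 54.7 and 117, and C1qc 50.1, 47.1 and 40.6. No value reached the lowest of mutant chow. The group means were 51.0%, 57.9% and 51.2% of those in mutant chow. Fitted log2 differences were -0.96 ± 0.25, -0.85 ± 0.26 and -0.95 ± 0.21 (SE, limma), with unadjusted p = 0.00226, 0.00659 and 0.000586 and adjusted p = 0.564, 0.724 and 0.444.

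Of the identity genes, Csf1r was 24.5, 33.8 and 35.0 in the libraries labelled mutant HFD, Selplg 25.2, 22.9 and 23.8, and Tmem119 16.9, 15.8 and 17.6, all below their mutant chow libraries. Their log2 differences were -0.68 ± 0.17, -0.61 ± 0.19 and -0.45 ± 0.19 (SE, limma), with unadjusted p = 0.00165, 0.00650 and 0.0356. Cx3cr1 was 15.5, 18.8 and 21.6, and the highest of these exceeded the lowest mutant chow value. P2ry12 was 21.5, 19.5 and 44.1 and showed no separation. P2ry13 and Siglech were the only members of the 34 with a fitted difference above 0 between the diets in mutants. Outside this class, Laptm5 was 27.8, 35.97 and 32.9, with a difference of -0.76 ± 0.18 (SE, limma, unadjusted p = 0.00123), and Itgam was 3.82, 7.68 and 9.13, with -0.73 ± 0.31 (SE, limma, unadjusted p = 0.0367). Fcgr3 was 9.60, 10.2 and 8.95 and Trem2 23.6, 29.4 and 15.1, with group means at 39.8% and 55.3% of mutant chow and unadjusted p = 0.00305 and 0.0347. Irf8 was 4.60, 3.22 and 4.12 and Lyz2 15.8, 10.998 and 15.2, below every mutant chow library, with unadjusted p = 0.0604 and 0.0592.

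For the 34 genes, 0 passed an adjusted p of 0.05 between the diets in mutants (limma, Benjamini-Hochberg), the same level at which 0.019% of all genes passed. At an unadjusted p under 0.05, 11 were lower on HFD and 0 higher, against 3.94% of all genes lower. These 11 were Ctss, the 3 C1q chains, Csf1r, Selplg, Tmem119, Trem2, Fcgr3, Itgam and Laptm5. With array weights the count was 17, and the share of all genes in that fit was not counted. Groups were apart, HFD below chow, for 15 of 34 against 4.88% of all genes, and the difference was below 0 for 32 of 34 against 53.1%. The 15 were Ctss, Ctsd, Ctsz, the 3 C1q chains, Csf1r, Selplg, Tmem119, Irf8, Trem2, Fcgr3, Itgam, Laptm5 and Lyz2. The median was -0.43 over the list and -0.02 over all genes. Without mutant chow replicate 3 the count at an unadjusted p under 0.05 was 12, and over the 12 fits that each left out 1 library it ran from 8 to 13. The share of all genes called in either direction was 4.45% without mutant chow replicate 3. It was 4.92% in the fit with 8 and 5.82% in the fit with 13, against 5.37% with all libraries.

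**Figure D3:**
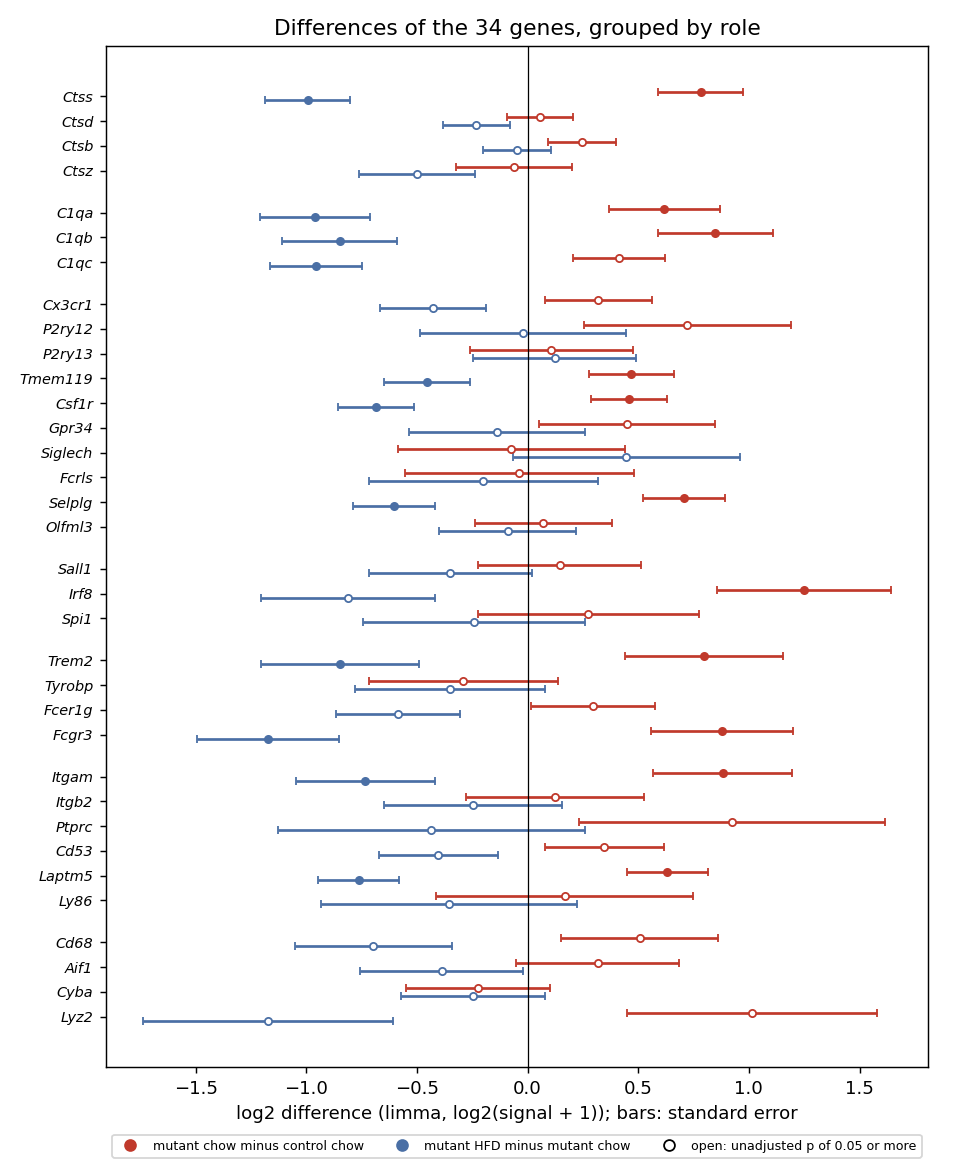
Fitted log2 differences of the 34 genes (vertical axis, grouped by role) for mutant chow minus control chow (red) and mutant HFD minus mutant chow (blue), with bars for the standard error of limma on log2(signal + 1). Filled points have an unadjusted p under 0.05, 11 in each comparison. The 2 comparisons share the mutant chow libraries.

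On HFD the differences between the genotypes lay on both sides of 0, above it for 18 members and below it for 16. Ctss was 81.5 and 97.6 in control HFD, and its log2 difference between the genotypes was 0.02 ± 0.23 (SE, limma, 95% interval -0.48 to 0.52), with a sign that changed under 4 alternative settings. None of the 34 passed an adjusted p of 0.05 (limma, 0.00633% of all genes), and 0 had an unadjusted p under 0.05, against 2.21% of all genes. Groups were apart for 6 of 34, against 15.7% of all genes, with Cd53, Irf8 and Fcgr3 higher and Ly86, Tyrobp and Tmem119 lower in the libraries labelled mutant HFD. The median difference was 0.01. Fcgr3 was 6.28 and 4.71 in control HFD against 8.95 to 10.2, a log2 difference of 0.71 ± 0.38 (SE, limma, unadjusted p = 0.0859).

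Between the diets in controls, only 2 HFD libraries were available. None of the 34 genes, and 0% of all genes, passed an adjusted p of 0.05 (limma, Benjamini-Hochberg). At an unadjusted p under 0.05, 2 were lower on HFD against 2.1% of all genes. These were Fcgr3, at -1.01 ± 0.38, and Cyba, at -0.97 ± 0.39 (SE, limma, unadjusted p = 0.0213 and 0.0285). Cyba was 42.8, 96.1 and 72.8 on chow and 24.3 and 46.9 on HFD. Ctss had a log2 difference of -0.23 ± 0.23 (SE, limma, unadjusted p = 0.335). Groups were apart with HFD lower for 6 (Itgb2, Fcrls, Cd68, Csf1r, Cd53 and Fcgr3), against 7.76% of all genes, and with HFD higher for 3 (Ctsb, P2ry12 and Tmem119), against 6.32%. The median over the list was -0.14. Without control chow replicate 1 the count of genes apart in either direction was 21, and 31.7% of all genes were apart.

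Whether the diet difference depended on genotype was tested with the interaction, the genotype difference on HFD minus that on chow. It was -0.76 ± 0.30 for Ctss (SE, limma, unadjusted p = 0.0247, adjusted p = 0.999). It was below 0 for 28 of 34 genes, with a median of -0.45 against -0.03 over all genes. An unadjusted p under 0.05 was reached, in the lower direction, by 4 genes, Ctss, Selplg (-0.68 ± 0.29), Laptm5 (-0.71 ± 0.29) and Itgam (-1.06 ± 0.49, SE, limma), against 1.87% of all genes. None passed after adjustment (limma, Benjamini-Hochberg), nor did any of all genes (0%). That count of 4 was 2 without control chow replicate 1, mutant chow replicate 2, control HFD replicate 2 or mutant HFD replicate 2, and 1 without mutant HFD replicate 1. In those fits 2.95% to 4.96% of all genes were called in either direction, against 3.44% with all libraries. Trem2 (-1.204), C1qb (-0.84) and Csf1r (-0.55) had unadjusted p = 0.0508, 0.0603 and 0.0597.

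The rule set the identity genes against the cathepsins. The mean log2(signal + 1) of the 4 cathepsins minus that of the 10 surface and secreted identity genes was 3.74, 4.37 and 4.06 in control chow and 4.04, 4.03, 3.98 and 3.92 in mutant chow. In control HFD it was 3.55 and 3.98, and in the libraries labelled mutant HFD 3.90, 3.84 and 3.52. The mutant chow mean was 0.06 below that of control chow, inside the control range. The mean in mutant HFD was 0.24 below that in mutant chow, with the nearest libraries at 3.90 and 3.92. Set against all 30 other members, an alternative added after the values were seen, the cathepsins gave 3.66, 3.74 and 3.66 in control chow, 3.29, 3.57, 3.62 and 3.55 in mutant chow, 3.496 and 3.81 in control HFD and 3.71, 3.64 and 3.31 in the libraries labelled mutant HFD. On that measure the mutant chow mean was 0.18 below that of control chow with no overlap. The mean in mutant HFD was 0.044 above that in mutant chow with overlap, so the direction between the diets depended on which members were set against the cathepsins. Within the cathepsins Ctss stood apart in size, since on chow the ratio of the means was 1.69 for Ctss and 1.04, 1.18 and 0.916 for Ctsd, Ctsb and Ctsz. Lysosomal genes outside the list were counted in the same way. Of 9 other lysosomal proteases, 8 had a difference above 0 on chow (52.2% of all genes) and 8 below 0 between the diets in mutants (53.1%). At an unadjusted p under 0.05 the count was 0 on chow, against 4.34% of all genes. Between the diets 1 was lower at that level, against 3.94% of all genes, Ctsh (cathepsin H, -1.28 ± 0.32 SE, limma, adjusted p = 0.564). Among 22 hydrolases, lysosomal membrane proteins and their regulators the count lower at that level between the diets was 1, near the share of 3.94% of all genes. This was Tfeb, the lysosomal transcription factor. Its signal was 12.9, 31.9, 29.2 and 13.7 in mutant chow and 11.3, 8.63 and 5.16 in the libraries labelled mutant HFD, a difference of -1.24 ± 0.44 (SE, limma, unadjusted p = 0.0146, adjusted p = 0.825). Progranulin (Grn) and cystatin C (Cst3), partners of the cathepsins, had mean ratios of 1.07 and 0.753 on chow.

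Of 8 ligands and partners of these genes, 7 had a difference above 0 on chow, against 52.2% of all genes. Between the diets in mutants 6 were below 0, against 53.1%. At an unadjusted p under 0.05 (limma), 1 was higher on chow, against 2.59% of all genes, and 1 lower between the diets, against 3.94%. Il34, a neuronal ligand of CSF1R, was 25.3, 33.97 and 23.0 in control chow and 43.5, 41.0, 35.1 and 30.8 in mutant chow, with a log2 difference of 0.45 ± 0.19 (SE, limma, unadjusted p = 0.0393, adjusted p = 0.982). The other ligand, Csf1, and fractalkine (Cx3cl1), the ligand of CX3CR1, had mean ratios of 0.917 and 1.04 on chow. Tgfb1, a factor that maintains microglia, had means of 6.31, 10.1 and 5.997 in control chow, mutant chow and mutant HFD. Apoe, a lipid carrier made by astrocytes and microglia, had a ratio of 0.892 on chow and 0.933 between the diets in mutants. Of the 8 complement genes outside C1q, 8 had a difference above 0 on chow, against 52.2% of all genes, and 3 were higher at an unadjusted p under 0.05, against 2.59%. C3, the central complement component, was 9.38, 0.457 and 2.59 in control chow and 14.8, 9.64, 15.7 and 16.4 in mutant chow. C4b was 113, 140, 118 and 141 in mutant chow and 66.4, 61.3 and 51.9 in the libraries labelled mutant HFD, with a difference of -1.08 ± 0.23 (SE, limma, unadjusted p = 0.000517, adjusted p = 0.444). In controls C4b was 83.03, 174 and 84.5 on chow and 60.03 and 60.08 on HFD. There too no HFD library reached the lowest chow library, so the lower values on HFD were not particular to mutants.

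Cathepsin S acts on the invariant chain, and the genes of that pathway spread widely. Cd74, the invariant chain, was 41.6, 201 and 123 in control chow, 290, 119, 520 and 94.3 in mutant chow, 24.3 and 67.7 in control HFD and 44.9, 58.6 and 50.2 in the libraries labelled mutant HFD. The genotypes overlapped on chow, and between the diets in mutants they did not. H2-Aa and H2-Ab1, chains of class II, were apart there too, and 4 of the 7 genes of the class were lower at an unadjusted p under 0.05, against 3.94% of all genes. The log2 differences were -1.98 ± 0.61 for Cd74, -1.85 ± 0.61 for H2-Aa and -1.94 ± 0.72 for H2-Ab1 (SE, limma), with adjusted p = 0.724, 0.784 and 0.825. The median of the 7 genes was -1.63 between the diets in mutants and -1.07 between the diets in controls. In controls 6 of the 7 were below 0, against 50.7% of all genes, and 0 had an unadjusted p under 0.05, against 3.54%. Of 26 further genes enriched in microglia, 19 had a difference above 0 on chow (median 0.15), against 52.2% of all genes. Between the diets in mutants 17 were below 0 (median -0.13), against 53.1%. At an unadjusted p under 0.05 (limma), 2 were higher on chow, against 2.59% of all genes, and 3 lower between the diets, against 3.94%. Of the 26, Unc93b1, which carries Toll-like receptors to endosomes, was 13.9, 14.6 and 15.6 in control chow, 25.8, 25.7, 38.8 and 20.2 in mutant chow and 12.9, 15.2 and 15.9 in the libraries labelled mutant HFD. On chow its difference was 0.83 ± 0.22 and between the diets in mutants -0.84 ± 0.22 (SE, limma, adjusted p = 0.905 and 0.564).

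Markers of other cell types were read in the same way. Some varied widely between libraries of the same group. Pituitary markers summed to 2673 to 8317 in control chow and 2143 to 6255 in mutant chow. On HFD they summed to 1209 to 4011 in controls and 2415 to 3538 in the libraries labelled mutant. Arcuate neuron markers summed to 3654 to 7932, 4255 to 8241, 2166 to 6486 and 3814 to 4425 in the same order, with Pomc in both lists. The part of these 2 lists was not tested. All 10 oligodendrocyte markers had a difference above 0 on chow (median 0.65), against 52.2% of all genes. All 10 were below 0 between the diets in mutants (median -0.65), against 53.1%. At an unadjusted p under 0.05 (limma) the count was 0 in either, against 4.34% and 5.37% of all genes. Their summed signal was 1323 to 3927 in control chow, 1891 to 6002 in mutant chow, 1904 to 3856 in control HFD and 1981 to 2930 in the libraries labelled mutant HFD. Their mean log2(signal + 1) was 5.73, 6.50 and 7.07 in control chow and 6.04, 7.72, 6.89 and 7.69 in mutant chow. The part of the oligodendrocyte markers in the result was not tested. Neuron markers had medians of 0.01 on chow and 0.25 between the diets in mutants, and astrocyte markers of 0.08 and 0.03. Of 10 macrophage markers of the brain's borders, 7 were in the table, and their summed signal was 12.8 to 47.5 in control chow, 22.1 to 78.6 in mutant chow, 16.8 to 28.4 in control HFD and 11.4 to 24.6 in the libraries labelled mutant HFD. The 78.6 was mostly Cbr2, at 73.5 in mutant chow replicate 3. Of the 6 tested, 5 had a difference below 0 on chow (median -0.27) and 4 between the diets in mutants (median -0.21), against 47.8% and 53.1% of all genes. Mrc1 did not exceed 2.53 and Cd163 was listed at 0 in 2 libraries. Stab1, another of the 7, was higher, at 5.20, 12.6 and 26.1 in control chow and 3.28 to 13.5 in mutant chow. Of 8 monocyte and neutrophil markers 2 were in the table. Csf3r, the G-CSF receptor, was 2.69, 3.47 and 7.17 in control chow, 9.86, 7.03, 22.6 and 9.20 in mutant chow and 3.62, 3.58 and 3.40 in the libraries labelled mutant HFD. The other, Ccr2, was low and did not exceed 2.31 in any library. Of 5 red blood cell markers, 4 had a difference above 0 on chow (median 0.89), against 52.2% of all genes. On chow 2 were higher with no overlap, against 2.54% of all genes. These were Alas2, the haem synthesis enzyme of erythroid cells, and the globin gene Hbb-bs, by 1.42 ± 0.42 and 0.90 ± 0.35 (SE, limma, adjusted p = 0.956 and 0.982). Between the diets in mutants the median of the 5 was -0.12. Their summed signal was 645 to 1684 in control chow, 1573 to 3178 in mutant chow, 1821 to 1987 in control HFD and 1173 to 4068 in the libraries labelled mutant HFD. Of 8 lymphocyte markers 5 were in the table, with medians of 0.78 on chow and -0.051 between the diets in mutants. The part of these markers was not tested.

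**Figure D4:**
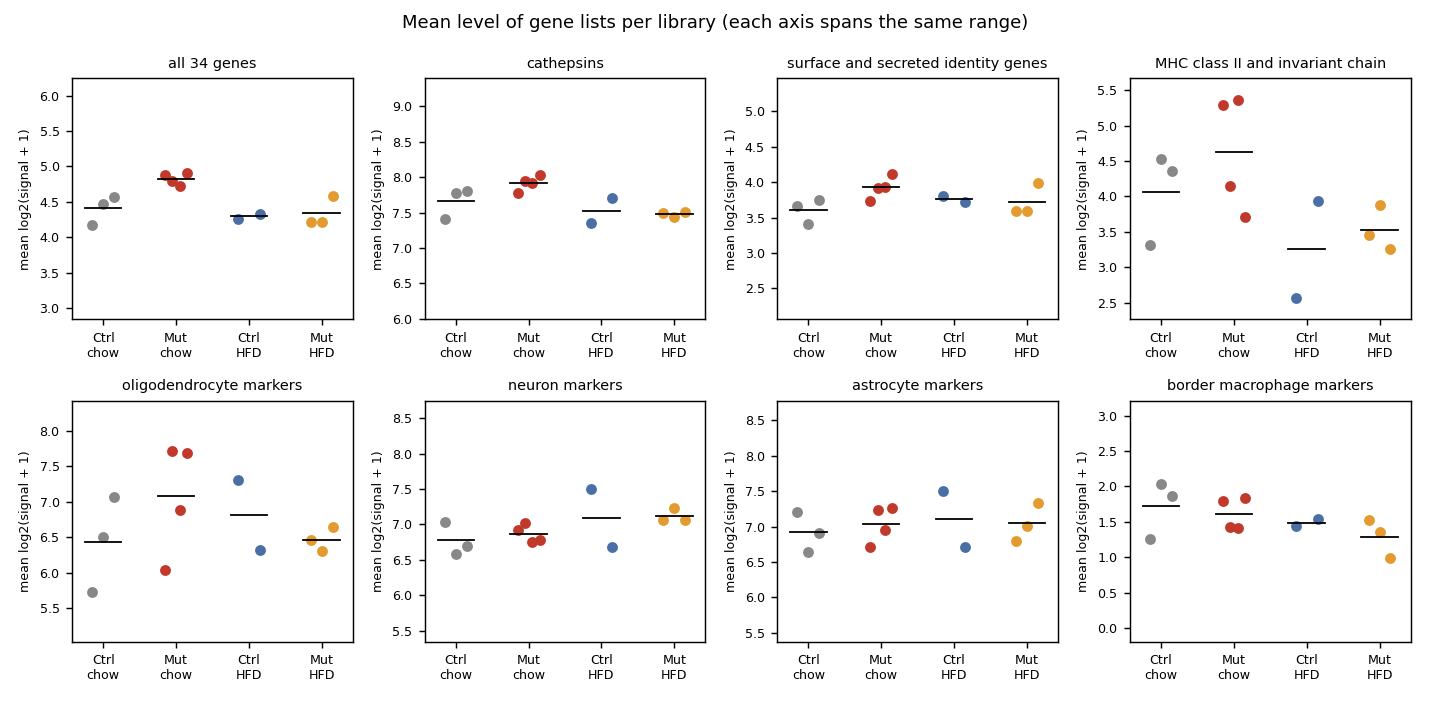
Mean log2(signal + 1) per library for all 34 genes, 2 of their classes, MHC class II genes and markers of 4 other cell types. Each point is 1 library, the line is the group mean, and the vertical axes start at different levels but span the same range. For the 34 genes the 4 mutant chow libraries (4.72 to 4.91) lie above all others (up to 4.58), while oligodendrocyte markers overlap between the groups on chow.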

How the data were processed

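Bulk RNA-seq of microdissected ARC was measured in 12 libraries. According to the methods and the submitters' processing notes, kallisto in gene mode (transcriptome of mm10) and sleuth were used, with no versions given. The authors deposited 1 abundance signal per gene and library. The scaling of that signal between libraries is not given in the sources used here, the values are not counts, and the depth is unknown, so no counting error can be stated. Symbols came from GENCODE M21 (GRCm38), which matched 16633 of 16640 genes and not the other 7. Every column was matched to a sample (0 were not), and no pair of libraries was identical.

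Values were transformed as log2(signal + 1), which understates the differences of low genes. Genes with a signal of at least 1 in at least 2 libraries were kept, which left 15801, all 34 members among them. limma 3.58.1 (R 4.3.3, trend option, 1 mean per group) used all 12 libraries, which gives the 4 small groups a common variance. Two-sided p-values were corrected across all 15801 genes (Benjamini-Hochberg), and the threshold was 0.05. Mean ± SD and ratios are on the deposited signal scale.

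The members and the gene lists were chosen with earlier results of these data known, so no list was tested as a set and its counts stand beside those of all genes. Every member is named, as are Esr1 and 8 partners (Csf1, Il34, Cx3cl1, Tgfb1, Cst3, Cd74, Grn and Apoe), and 1 further partner is not reported here. Of each other list, up to 3 genes per comparison with an unadjusted p under 0.05 and no overlap could be named. Mrc1 and Cd163, named as defining markers, and Cbr2, Stab1 and Ccr2 were chosen after their values were seen. Alternatives were quantile normalisation, columns rescaled to the same sum, limma without the trend, array weights, no filter, a filter on a mean under 5, 0.1 as the pseudocount, a fit to only the groups compared, and leaving out each library. Counts at an unadjusted p under 0.05 on chow and between the diets in mutants, and the cathepsins against the 30 other members, were added after seeing the data. Promoter sequences came from RefSeq on GRCm38.p6.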

Additional observations from a re-analysis of the deposited data

Results flagged for a closer look

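Within the 4 mutant chow libraries, 7 of the 34 genes had 1 library set apart from the other 3, by a gap above Dixon's 95% critical value for the gap divided by the range. By chance about 1 in 20 groups is expected to do so. Mutant chow replicate 3, the library with the most genes listed at 0, was high for Irf8 (16.5) and low for Siglech (2.83), Tyrobp (15.1) and Ly86 (2.38). Mutant chow replicate 1 was high for Lyz2 (60.3) and for Fcer1g (50.6). C1qc was highest in mutant chow replicate 2, at 97.7, where the other 3 libraries lay within 2 units of each other.

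Tmem119 was higher in mutants than in controls on chow in every library and lower on HFD in every library, and between the diets its HFD values were all lower in mutants and all higher in controls. The nearest values were 17.62 and 17.70 between the genotypes on HFD and 17.48 and 17.70 between the diets in controls. The fitted differences there were -0.12 and 0.13 (limma, unadjusted p = 0.616 and 0.574), and 15.7% and 14.1% of all genes were apart in either direction at those group sizes. The genotype by diet difference behind both was -0.59 on the log2 scale. This contrast of non-overlapping groups was not tested by itself, and the interaction term of limma had an unadjusted p = 0.0734 and a Benjamini-Hochberg adjusted p = 0.999.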

How the results depend on the processing

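No paired analysis was possible because nothing in the labels ties a library of one group to a library of another. The count-based alternative was not run because the values are not counts. For single genes, 1466 values were recomputed for 74 results, of which 1447 kept their direction and their side of the threshold, 16 changed sign and 3 newly passed an adjusted p of 0.05. With array weights Ctss between the diets in mutants passed (-1.08, adjusted p = 0.0370), so that 1 member passed there instead of 0, and C4b did so too (-1.10). C4b (-1.08) also passed without control chow replicate 2, with a range of -1.16 to -0.99 over the fits without 1 library. Over all 20 alternatives the adjusted p between the diets in mutants ran from 0.0370 to 0.965 for Ctss and from 0.0414 to 0.999 for C4b (limma, Benjamini-Hochberg). No cause of the changes named here was tested.

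At an unadjusted p under 0.05 (limma), the count of members was 17 between the diets in mutants with array weights, and for the interaction 8 with array weights and 9 with rescaled columns, against 11 and 4. The share of all genes called in those fits was not counted, so these counts cannot be set against it. Over the fits that each left out 1 library the count of members ran from 7 to 12 on chow, where 6.38% and 4.77% of all genes were called. For the interaction it ran from 1 to 6, where 3.06% and 3.13% of all genes were called, and the median from -0.57 to -0.29. The number of members apart ran from 6 to 18 for genotype on HFD (18 without control HFD replicate 2, with 54.7% of all genes apart) and from 9 to 21 for diet in controls (21 without control chow replicate 1, with 31.7% apart). Rescaled columns gave Ctsz on chow 0.035 and Ctss between the genotypes on HFD -0.057, and array weights gave 0.078 and -0.045 for the same and 0.15 for Tyrobp on chow. Over the fits without 1 library the log2 difference on chow ran from -0.036 to 0.17 for Ctsd (-0.01 without mutant chow replicate 4), from -0.31 to 0.25 for Ctsz (0.05 without mutant chow replicate 1), from -0.49 to 0.24 for Tyrobp and from -0.091 to 0.86 for Ly86 (-0.05 without mutant chow replicate 1, -0.06 without replicate 2). It ran from -0.12 to 0.027 for Ctsb between the diets in mutants and from -0.12 to 0.15 for Ctss between the genotypes on HFD (-0.11 without control HFD replicate 1). Over the same fits the median on chow stayed between 0.28 and 0.49 and that between the diets in mutants between -0.56 and -0.41. Depth is unknown, so low genes such as Ptprc and Fcrls carry an error that cannot be stated.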
